A study of Mus musculus with 5 samples.

Results

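The genes described here are 9 matricellular and matrix-binding genes of the mouse kidney, Fn1, Thbs1, Tgfbi, Ecm1, Sparc, Postn, Tnc, Vcan and Lum, out of 28692 gene identifiers in the droplet count tables. They were taken by symbol, and all 9 symbols were present. The kidneys came from a reversible unilateral ureteric obstruction (UUO) model, in which the ureter of a kidney is blocked and the block can later be taken away. Each of 4 droplet libraries pooled 3 C57/BL6 mice of 8 weeks. They were taken from sham-operated kidneys (day 0), from kidneys blocked for 2 days (UUO day 2) or for 7 days (UUO day 7), and from kidneys 7 days past removal of the block, experimental day 14 (the reversed library). No genetic change is named for any group, and the pooled mice cannot be separated. The remaining sample, 768 Smart-seq2 wells, mixed all time points and is described last. Since each time point had 1 library, no test between time points was possible. Every interval below is a 95% interval for counting error only, and a difference between libraries could equally be a difference between pools of mice, surgeries or preparations.

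Matricellular proteins are secreted proteins that bind structural matrix, growth factors and cell surface receptors, and that tune adhesion and signalling more than they build the scaffold. In the injured kidney their transcripts are known from fibroblasts, monocytes, macrophages and damaged epithelium. Fibronectin (Fn1) is an adhesive glycoprotein that integrins assemble into fibrils, and thrombospondin-1 (Thbs1) binds CD47 and CD36 and can activate latent TGF-beta. Tgfbi is a secreted integrin ligand induced by TGF-beta, and Ecm1 is a secreted glycoprotein that binds matrix proteins and proteases. Sparc binds collagen and calcium, and periostin (Postn) and tenascin-C (Tnc) are fibroblast products of healing and fibrotic tissue. Versican (Vcan) is a large hyaluronan-binding proteoglycan and lumican (Lum) is a small leucine-rich proteoglycan that binds collagen fibrils.

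All 9 are protein-coding genes on the GRCm38 build in the GENCODE vM21 annotation. Fn1 (ENSMUSG00000026193) lies on the minus strand at chr1:71585520-71653200 and Thbs1 (ENSMUSG00000040152) on the plus strand at chr2:118111876-118127133. Tgfbi (ENSMUSG00000035493) lies on the plus strand at chr13:56609523-56639562 and Ecm1 (ENSMUSG00000028108) on the minus strand at chr3:95734147-95739569. Sparc (ENSMUSG00000018593) lies on the minus strand at chr11:55394500-55423183, Postn (ENSMUSG00000027750) on the plus strand at chr3:54361109-54391037, and Tnc (ENSMUSG00000028364) on the minus strand at chr4:63959785-64047015. Vcan (ENSMUSG00000021614) lies on the minus strand at chr13:89655312-89742509 and Lum (ENSMUSG00000036446) on the plus strand at chr10:97565128-97572703.

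Promoters of 3 genes are shown because their transcripts took different courses: Ecm1 was lower in phagocytes at day 7 than at day 2, Postn was highest in stromal cells at day 7, and Tnc was highest there in the reversed library. Each line is the 250 bases before an annotated start in RefSeq (GRCm38.p6), read 5′ to 3′ on the gene's strand, with motif matches in capitals. RefSeq gave 2 starts each for Postn and Tnc, and 1 window of each is printed. The windows are chr3:95739570-95739819 for Ecm1, chr3:54360857-54361106 for Postn and chr4:64047016-64047265 for Tnc.
Ecm1: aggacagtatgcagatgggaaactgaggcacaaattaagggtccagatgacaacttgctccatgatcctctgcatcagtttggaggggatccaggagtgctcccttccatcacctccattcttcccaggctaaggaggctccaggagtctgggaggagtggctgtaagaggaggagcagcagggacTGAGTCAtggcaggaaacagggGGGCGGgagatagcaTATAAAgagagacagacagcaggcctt
Postn: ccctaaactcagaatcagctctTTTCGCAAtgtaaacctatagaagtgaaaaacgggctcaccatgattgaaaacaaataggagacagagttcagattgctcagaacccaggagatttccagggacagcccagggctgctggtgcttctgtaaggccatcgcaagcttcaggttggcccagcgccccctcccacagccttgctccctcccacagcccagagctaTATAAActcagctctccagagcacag
Tnc: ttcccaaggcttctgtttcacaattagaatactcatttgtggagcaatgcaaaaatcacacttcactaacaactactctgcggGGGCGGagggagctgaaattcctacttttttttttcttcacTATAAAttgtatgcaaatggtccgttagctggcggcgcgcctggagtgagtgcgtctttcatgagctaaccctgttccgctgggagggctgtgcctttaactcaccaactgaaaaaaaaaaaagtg
Each motif was searched on both strands. The AP-1 motif was spelled TGANTCA and occurred in 6.75% of 32851 mouse promoter windows of the same length. The C/EBP motif was spelled TTGCNNAA and occurred in 9.56% of them. The PU.1 motif was spelled GAGGAAGT and occurred in 2.44% of them. The core promoter box with the letters TATAAA occurred in 12.4% of these windows, and the Sp1-type box with the letters GGGCGG in 32.7%. The Ecm1 window held the AP-1 motif at 64 to 58 bases, the Sp1-type box at 42 to 37 bases and the core promoter box at 27 to 22 bases before the start. The Postn window held the C/EBP motif at 228 to 221 bases and the core promoter box at 26 to 21 bases, and the Tnc window held the Sp1-type box at 167 to 162 bases and the core promoter box at 126 to 121 bases before the start. None of these matches overlapped. The window of the other Postn start, chr3:54359017-54359266, held none of these motifs, and that of the other Tnc start, chr4:64046937-64047186, held the same boxes at 246 to 241 and 205 to 200 bases before that start. A match describes letters only. RefSeq windows were matched for 6 of the 9 genes (Postn, Ecm1, Tnc, Sparc, Tgfbi and Vcan).

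The deposited droplet tables held 16876 cells, between 2739 and 5938 per library, with 18649637 to 30462683 UMIs (unique molecular identifiers) per library. After filters on genes detected, mitochondrial share and doublets, 13346 cells remained. The sham library stood apart: its median kept cell held 2663 UMIs against 4875 to 6546 in the other 3 libraries, and its median deposited cell was 40.6% mitochondrial against 3 to 16.2%. Barcodes occurring in more than 1 library made up 292 cells. A marker gate named 3408 phagocytes (56 in sham, 527 at day 2, 2267 at day 7 and 558 in the reversed library), 184 stromal cells (7, 15, 74 and 88), 971 endothelial cells (190, 118, 370 and 293) and 7058 tubule cells (3371, 1206, 829 and 1652). None of the 9 genes is a gate marker. The summed level of the 10 phagocyte markers was 10655 to 12873 CPM (UMIs of a gene over all UMIs of those cells, scaled to a common total of 1000000) in gated phagocytes, and that of the 10 stromal markers was 12581 to 33043 CPM in gated stromal cells. T, NK and B lymphocytes of the same library served to show free RNA, on the assumption that they lack these transcripts. For Ecm1 the assumption is uncertain. Over all libraries Ecm1 was 22.1 CPM (31 UMIs) in the lymphocyte cluster led by Cd3g and Trac, and 3.49 to 7.47 CPM in the other lymphocyte clusters. Whether T cells made Ecm1 was not tested, and every Ecm1 value set beside or less the lymphocyte level has that limit. They numbered 20 in sham, 147 at day 2, 386 at day 7 and 287 in the reversed library. The 20 sham cells could not show a level under 68.2 CPM (the floor of 3 UMIs). The 10 phagocyte markers summed to 773, 1595, 2430.4 and 944 CPM in lymphocytes, in the order of the libraries. In endothelial cells they summed to 52, 264, 1208 and 419 CPM and in tubule cells to 32.5, 282, 1035 and 349.9 CPM. Lymphocytes thus held a higher sum of these markers than the endothelial and tubule cells set against them. In sham lymphocytes 5 of the 10, Aif1, Cd68, Csf1r, Cybb and Spi1, had no UMI, so the sum came from the others. Whether the sum was free RNA or the lymphocytes' own transcripts was not tested, nor was its part in their levels of the 9 genes.

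Phagocytes held most Fn1, Tgfbi, Ecm1 and Vcan UMIs of the day 2 kidney, with all kept cells counted. At day 2 the gated phagocytes gave 92.9% of 2236 Fn1 UMIs, 96.3% of 6661 Tgfbi UMIs, 72.8% of 852 Ecm1 UMIs and 91% of 177 Vcan UMIs. They gave 51.2% of 1045 Thbs1 UMIs, and tubule cells gave 43.2%. At day 7 the phagocyte share was 57.8% for Fn1 and 32.7% for Thbs1, and stromal cells gave 29.5% and 21.8%. In the reversed library the phagocyte share was 43.5% for Fn1, 14% for Thbs1, 10.4% for Ecm1 and 33.7% for Vcan. Tgfbi stayed a phagocyte transcript in every library, with 78.8% to 96.3% of its UMIs. These shares move with the number of cells of each class that the digestion and sort returned, so they describe the libraries and not the organ.

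**Figure D1:**
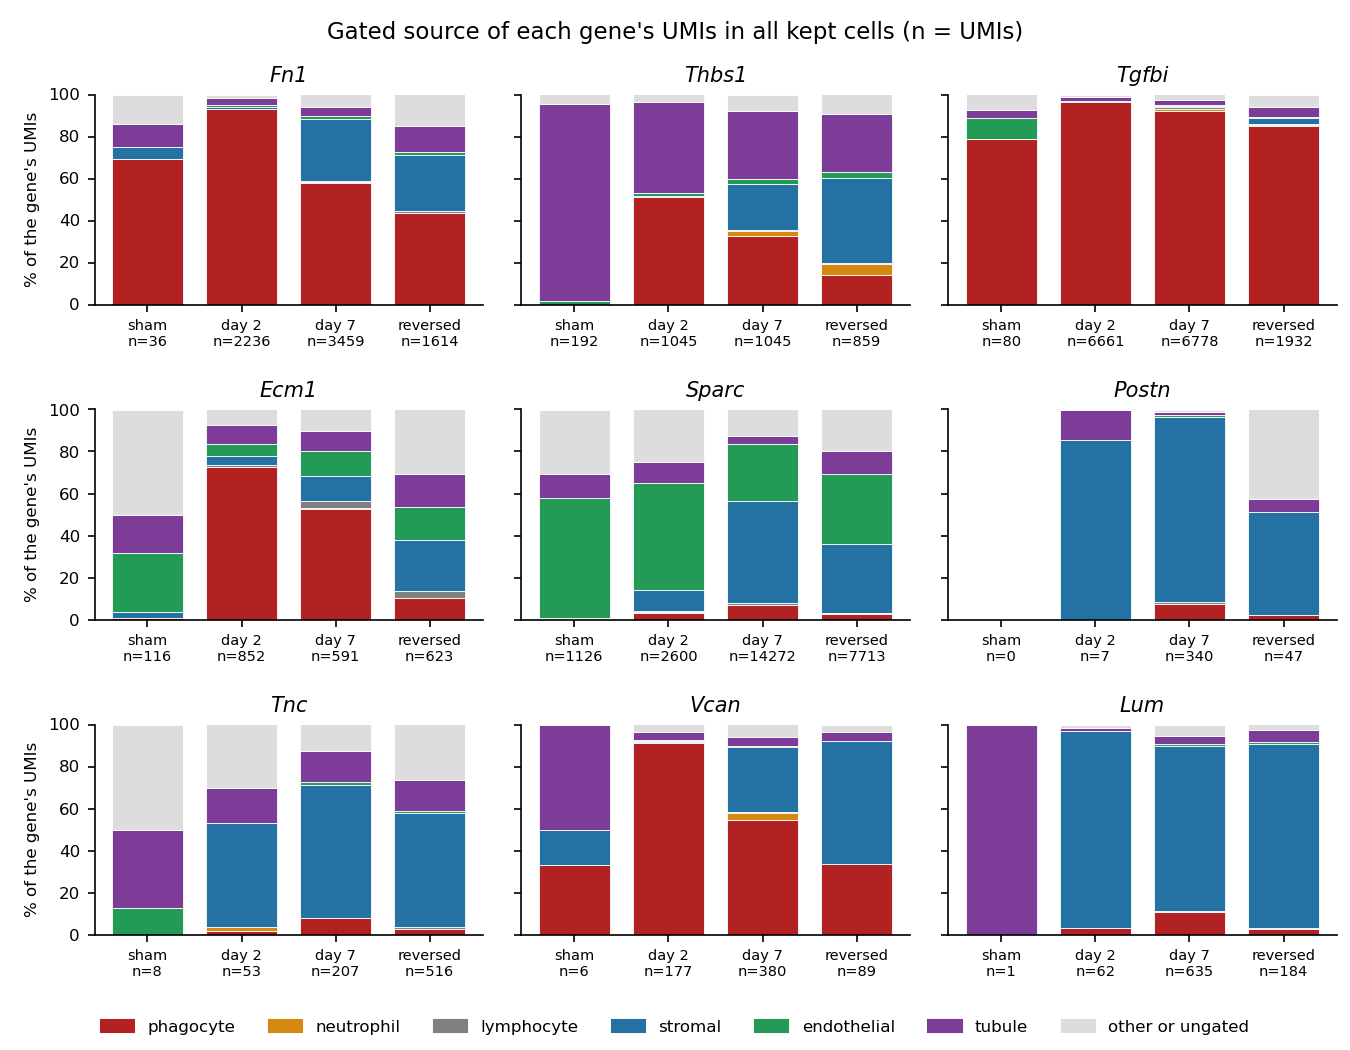
Stacked bars give the gated source of each gene's UMIs as a percentage of that gene's UMIs in all kept cells of a library, with the number of UMIs (n) under each bar. Phagocytes supplied 92.9% of Fn1 UMIs at day 2 and 43.5% in the reversed library, and sham bars of Postn, Tnc, Vcan and Lum rest on 0 to 8 UMIs.

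Fn1 in phagocytes was 116 CPM in sham (25 UMIs, interval 75 to 171), 354 CPM at day 2 (339 to 369), 124 CPM at day 7 (119 to 129.8) and 159.9 CPM in the reversed library (148 to 172). Day 2 was the high library. The 25 sham macrophages of the gate held 0 Fn1 UMIs, for which the exact upper limit was 46 CPM. The 386 macrophages of the reversed library held 80.3 CPM and were called higher. Of these, 23 cells in a cluster led by Cd209a, described below, gave 156 Fn1 UMIs, at 648 CPM. That cluster had 0 gated macrophages in sham. The shares of phagocytes with an Fn1 UMI were 12.5, 50.9, 20.2 and 17.6%, against 0, 1.36, 5.96 and 3.48% of lymphocytes. Median depths were 3321 to 10040 UMIs in phagocytes and 1792 to 3464 in lymphocytes. With every cell thinned to 1000 UMIs the Fn1 shares were 5.36, 20.9, 7.06 and 7.71% of phagocytes.

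No Thbs1 UMI was counted in the 56 sham phagocytes (floor of 3 UMIs 13.9 CPM, exact upper limit 17.1 CPM), so a low sham level was not measurable. Thbs1 was 91.1 CPM at day 2 (83.6 to 99.2), 21.3 CPM at day 7 (19.1 to 23.6) and 27.3 CPM in the reversed library (22.7 to 32.7). In the reversed library 39 of the 120 UMIs were in 1 cell, a Ly6c2-high monocyte by the gate, and without it the level was 18.5 CPM (14.7 to 23), an interval that reaches below the sham limit. Lymphocytes held 0 to 3.73 CPM of Thbs1.

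Tgfbi in phagocytes was 292 CPM in sham (224 to 374), 1093 CPM at day 2 (1066 to 1119.7), 388 CPM at day 7 (378 to 397) and 373 CPM in the reversed library (356 to 392). It was the most widely detected of the 9 genes in these cells, in 41.1, 91.7, 71.5 and 66.5% of them, against 0, 8.84, 12.7 and 4.18% of lymphocytes. Ecm1 was 4.64 CPM in sham (1 UMI), 106 CPM at day 2 (97.5 to 114), 19.3 CPM at day 7 (17.2 to 21.6) and 14.8 CPM in the reversed library (11.4 to 18.9). The last 2 Ecm1 levels were near the 12.8 and 17.7 CPM of lymphocytes in those libraries, and the share of phagocytes with an Ecm1 UMI passed from 37.8% at day 2 to 9.7% at day 7. Vcan was 9.27, 27.4, 12.9 and 6.83 CPM, from 2, 161, 207 and 30 UMIs.

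The remaining 4 genes were read beside lymphocytes. In phagocytes Sparc was 4.64, 13.8, 60.3 and 44.2 CPM and 0, 17.4, 62.6 and 25.2 CPM in lymphocytes. In the reversed library the Sparc interval was 38.2 to 50.9 CPM in phagocytes and 16.6 to 36.6 CPM in lymphocytes, and these do not overlap. Postn, Tnc and Lum did not exceed 4.23 CPM in phagocytes of any library. The 10 stromal markers summed to 13.9, 26.7, 114 and 76.8 CPM in the gated phagocytes and 45.5, 13.9, 118 and 46.6 CPM in lymphocytes, and their part in the phagocyte Sparc and Lum values was not tested.

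**Figure D2:**
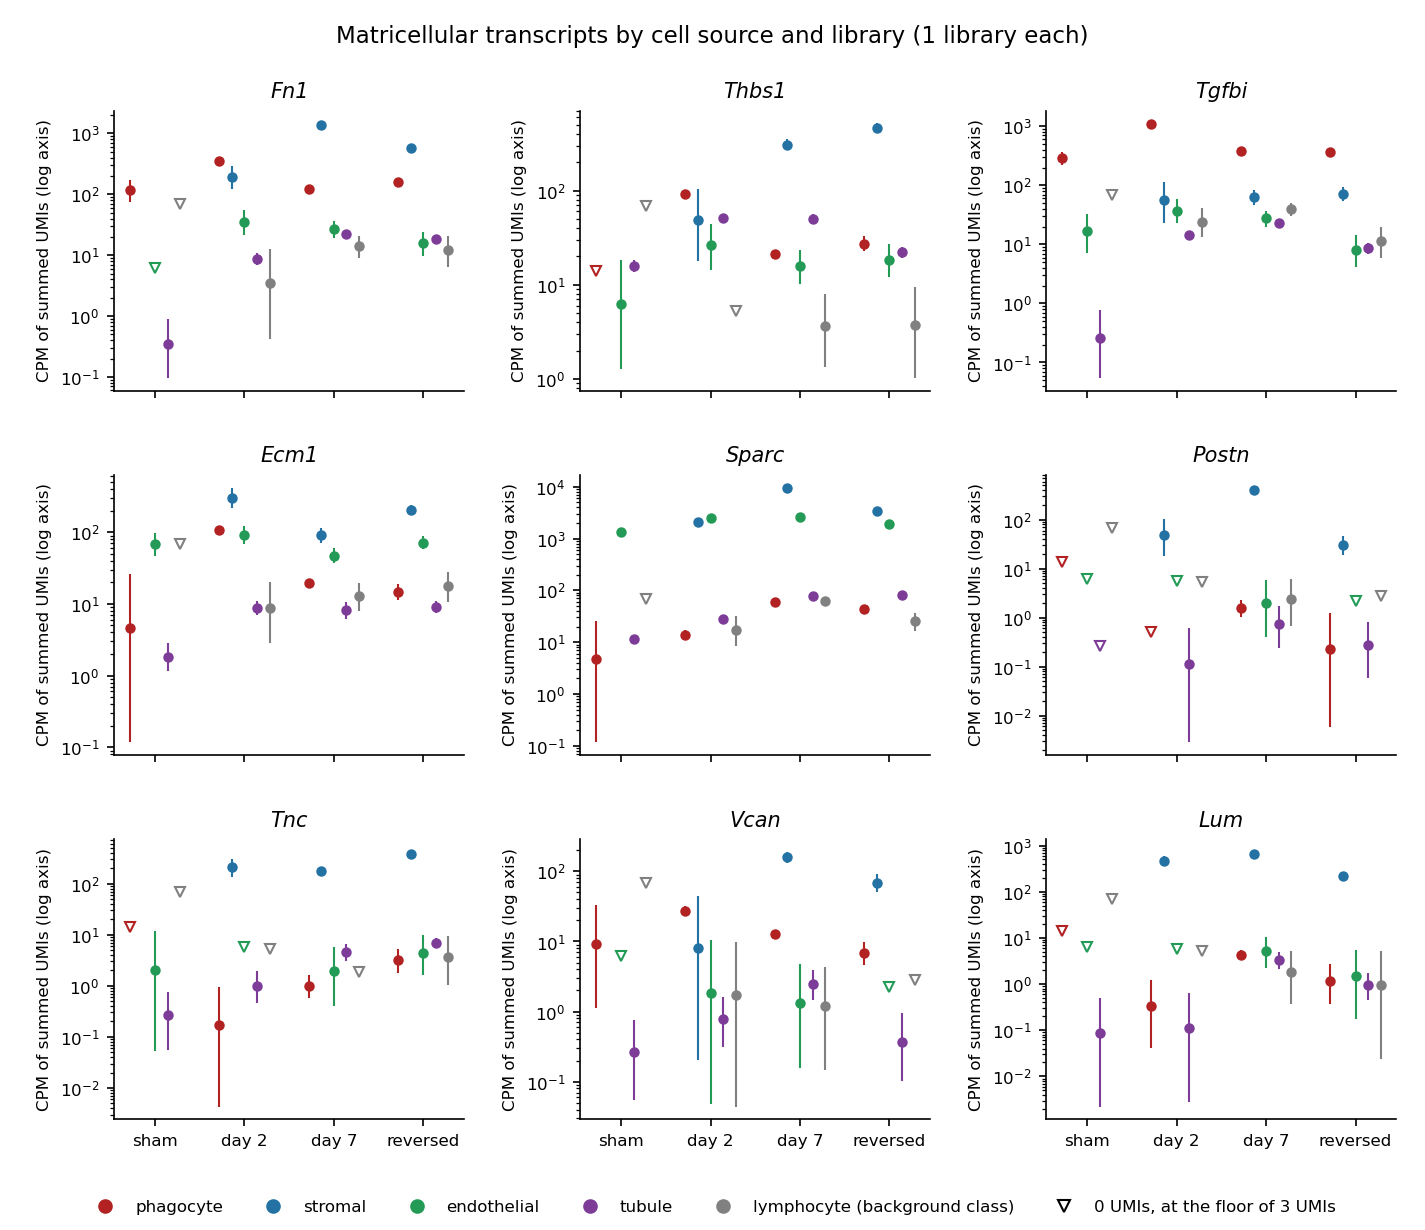
Points give each gene's CPM of summed UMIs on a log axis by gated source and library, with bars for the exact Poisson 95% interval, and open triangles mark 0 UMIs at the floor of 3 UMIs. Stromal cells of sham are left out because there were 7, and phagocyte Fn1, Thbs1, Tgfbi and Ecm1 are highest at day 2 while stromal Sparc and Postn are highest at day 7.

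A gene was called higher or lower between 2 libraries where the ratio passed 2-fold on the log2(CPM + 1) scale, the counting interval left out 0 and the pair held at least 30 UMIs. From sham to day 2, 4 of 6 matricellular genes with enough UMIs were called higher in phagocytes, Fn1, Thbs1, Tgfbi and Ecm1, and none lower. Of all genes tested 5.63% were called higher and 4.55% lower, and the median log2 ratio was 1.75 for the 6 genes and 0.19 for all genes. The log2 ratios were 1.60 for Fn1 (1.04 to 2.23), 1.90 for Tgfbi (1.54 to 2.28) and 4.24 for Ecm1 (1.98 to 6.58). For Thbs1, with 0 UMIs in sham, the counting interval of the log2 ratio began at 2.34. The sham side rests on 56 cells of a shallow library, and 96% of its Fn1 UMIs came from 13 cells of the cluster led by Ifitm6 described below.

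From day 2 to day 7, 5 of 7 genes were called lower in phagocytes, Fn1, Thbs1, Tgfbi, Ecm1 and Vcan, where 2.79% of all genes were. The log2 ratios were -1.50 for Fn1 (-1.59 to -1.41), -2.05 for Thbs1 (-2.24 to -1.86), -1.49 for Tgfbi (-1.54 to -1.44), -2.39 for Ecm1 (-2.58 to -2.20) and -1.04 for Vcan (-1.32 to -0.75). The median over the 7 genes was -1.49, and over all genes 0.039. Sparc and Lum were called higher, where 7.18% of all genes were. At day 7 phagocytes and lymphocytes held Sparc at 60.3 and 62.6 CPM and Lum at 4.23 CPM (3.28 to 5.36) and 1.82 CPM (0.376 to 5.33). The Lum call was lost with cells thinned to 1000 UMIs, at a ratio of 2.55, and with a pseudocount of 10 CPM, at 0.46. The Sparc call was lost with the lymphocyte CPM subtracted, at 0.00. Fn1, Thbs1, Tgfbi and Ecm1 kept their calls in every alternative given here, and Vcan lost its call in 2 of them, the smallest ratio being -0.71.

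From day 7 to reversal, Fn1, Thbs1, Tgfbi and Ecm1 in phagocytes were all within 2-fold. Their log2 ratios were 0.36 (0.24 to 0.49), 0.35 (0.049 to 0.64), -0.054 (-0.13 to 0.024) and -0.36 (-0.74 to 0.0053). The Ecm1 ratio was -2.92 with lymphocyte CPM subtracted and 0.37 with thinned cells. Tnc was called higher and Lum lower, 1 of 8 genes each, with 2.38% of all genes called higher and 0.686% lower, and both levels were at most 4.23 CPM. Reversed phagocytes held Tnc at 3.19 CPM (14 UMIs) against 3.73 CPM in lymphocytes, the ratio was -1.0 with lymphocyte CPM subtracted, and the call was lost with thinned cells and with a pseudocount of 10 CPM. The Lum call was lost in 3 of 8 alternatives. Reversed against sham, Thbs1 and Sparc were called higher, 2 of 6 genes against 4.5% of all genes, and none lower against 2.74%. Sham held 0 Thbs1 UMIs, and the reversed Thbs1 level was 1.97 times the sham floor of 3 UMIs, under 2-fold. Both calls were lost with cells thinned to 1000 UMIs, where the log2 ratios were 4.89 for Thbs1 and 5.27 for Sparc. The Sparc call was also lost with lymphocyte CPM subtracted, at 1.83. The Fn1 ratio there was 0.46 (-0.11 to 1.09) and the Tgfbi ratio 0.35 (-0.0088 to 0.74), so that a 2-fold difference lay inside the first interval and outside the second.

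**Figure D3:**
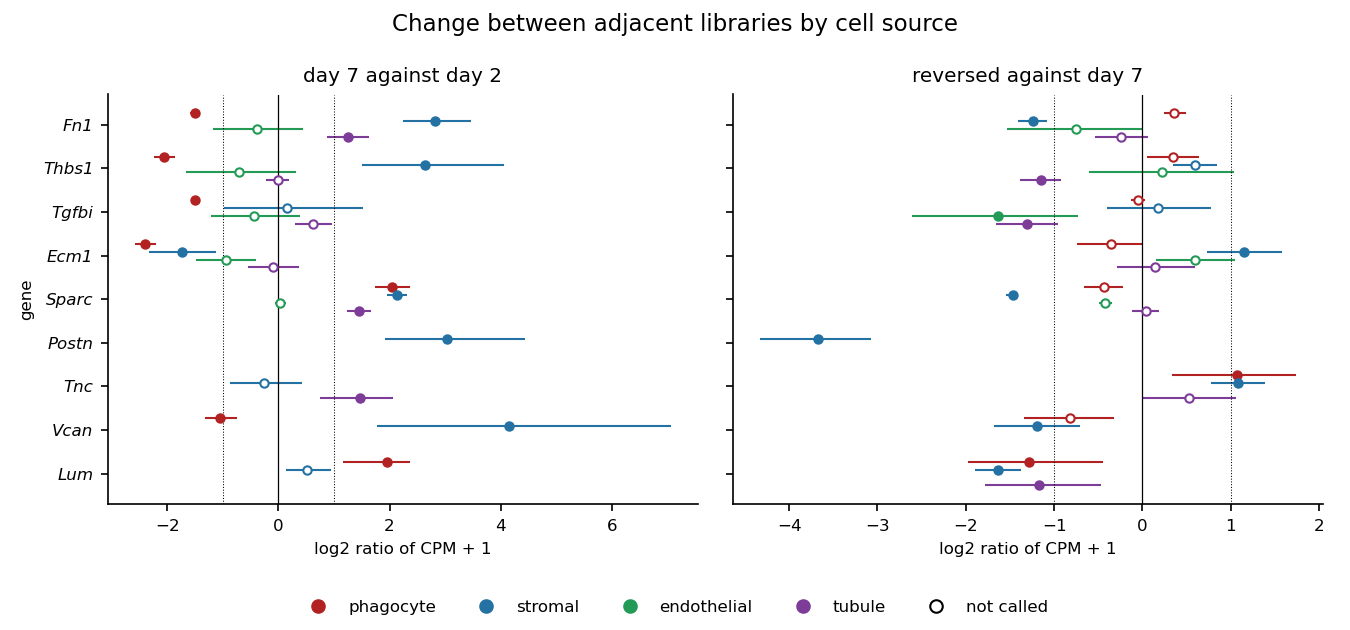
Points give the log2 ratio of CPM + 1 between libraries for each gene and gated source, with the exact 95% counting interval as a bar, dotted lines at 2-fold, filled points for called and open points for uncalled genes, and no point where a pair held under 30 UMIs. At day 7 against day 2, Fn1, Thbs1 and Vcan lie below 0 in phagocytes and above 0 in stromal cells, and in the reversed library stromal Postn lies lowest at -3.67.

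The cells that supplied Fn1 changed between libraries. Clusters were built without the 9 genes, so their Fn1 values did not enter the grouping, and clusters are named here by their leading genes. A cluster with Msr1 and Sirpb1c among its leading genes held 216, 112 and 47 phagocytes at day 2, day 7 and in the reversed library. Its Fn1 level was 632 CPM (601 to 665), 467 CPM (424 to 512) and 313 CPM (263 to 369), and its share of phagocyte Fn1 UMIs was 72.7, 22.2 and 20.1%. A second cluster, led by Cd209a, Tnip3, Ear2, Mmp12 and Clec10a, had more Fn1 in the later libraries than in the earlier ones. Its level was 12.6 CPM in sham (1 UMI), 33.2 CPM at day 2 (22 to 48), 291 CPM at day 7 (272 to 309.7) and 428 CPM in the reversed library (389 to 469.7), over 14, 81, 388 and 108 cells, and its share was 4, 1.35, 47.8 and 62.5%. The cluster was mixed by the marker gates. Its gated type 2 dendritic cells, 35, 173 and 40 in the last 3 libraries, held Fn1 at 14.6, 37.1 and 3.14 CPM. Gated macrophages were 0 of its 14 cells in sham and 1 of 81 at day 2, with no Fn1 UMI. At day 7 its 120 gated macrophages gave 625 of its 956 Fn1 UMIs, at 549 CPM, and its 66 cells of no gated subset gave 220. In the reversed library 36 cells of no subset gave 269 of 439 UMIs, at 715 CPM, and 23 macrophages gave 156, at 648 CPM.

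A cluster led by Ifitm6, Hp, Chil3 and F13a1 kept Fn1 at 608, 434, 343 and 436 CPM over 13, 96, 120 and 29 cells, with 96% of sham phagocyte Fn1 UMIs. A cluster led by Ms4a7, Hpgds, Adgre1 and Cx3cr1, the largest at day 7 with 1035 cells, held 0, 4.88, 21.2 and 7.43 CPM of Fn1. Clusters led by Xcr1 or Ccr7 held 4.66 to 8.56 CPM, at or under the lymphocyte level of their library at day 7 and in the reversed library.

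Thbs1, Ecm1 and Vcan did not exceed 12.7 CPM in the Cd209a cluster of any library. Thbs1 there was 0, 1.18, 11.2 and 9.74 CPM, and its share of phagocyte Thbs1 UMIs was 0.187% at day 2, 10.8% at day 7 and 8.33% in the reversed library. The share of Ecm1 UMIs there was 0.968, 10.6 and 20% in those libraries. Whether these courses differed from that of Fn1 was not tested. The Msr1 cluster held Thbs1 at 166, 147 and 162 CPM and 74, 40.9 and 60.8% of phagocyte Thbs1 UMIs, and without the single cell named above its reversed level was 77.6 CPM (53.8 to 108). Ecm1 in the Msr1 cluster was 217, 90.6 and 39.9 CPM. Vcan belonged to the Ifitm6 cluster, at 50.6 CPM in sham (2 UMIs) and 115, 167 and 116 CPM in the other libraries, with 49.7 to 70% of phagocyte Vcan UMIs in those 3. In the day 7 library Tgfbi was 889 CPM in the Msr1 cluster, 851 in the Ifitm6 cluster, 351 in the Ms4a7 cluster, 325 in the Cd209a cluster, 131 in the Xcr1 cluster and 31.8 in the Ccr7 cluster.

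A split by Retnla, a secreted alternative activation product, was chosen after values had been seen. Retnla-positive phagocytes numbered 7 at day 2, 228 at day 7 (10.1%) and 66 in the reversed library (11.8%), and 0.68, 5.18 and 3.14% of lymphocytes held a Retnla UMI. Fn1 was 318 CPM in them at day 7 and 493 CPM in the reversed library, against 97.7 and 93.4 CPM in Retnla-negative phagocytes. They gave 30.9% and 51.3% of phagocyte Fn1 UMIs.

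Subsets gated by other markers showed the day 7 decrease in macrophages for all 5 genes. In 216 day 2 and 1628 day 7 gated macrophages Fn1 was 388 and 113 CPM, Thbs1 70.9 and 19.1, Tgfbi 1170 and 413, Ecm1 131 and 23.1, and Vcan 13.6 and 3.37. In Ly6c2-high monocytes, 150 and 168 cells, Thbs1 was 190.1 and 72.1 CPM and Ecm1 125 and 24.6 CPM, both called lower. In the 31 such monocytes of the reversed library Thbs1 was 202 CPM and was called higher than at day 7, but 39 of its 46 UMIs were in 1 cell, and without that cell it was 32.7 CPM (13.1 to 67.3). Fn1 in those monocytes was 534 and 361 CPM, a log2 ratio of -0.56 (-0.74 to -0.39), and Vcan was 76 and 131 CPM, a log2 ratio of 0.78 (0.41 to 1.16), neither past 2-fold. Fn1 in gated type 2 dendritic cells was 34.4, 39.8 and 7.74 CPM at day 2, day 7 and in the reversed library, the last called lower than day 7. Fn1 in type 1 dendritic cells was 5.13 (1 UMI), 31.7 and 6.42 CPM. Type 1 dendritic Fn1 was called higher at day 7, at a log2 ratio of 2.42 (0.062 to 4.89), and then lower, at -2.14. Both calls lean on few cells. Of the 99 gated type 1 dendritic cells at day 7, 3 fell in the Cd209a cluster and held 17 Fn1 UMIs, at 879 CPM (512 to 1407). The Xcr1 cluster held 8.56 CPM in that library. In phagocytes of no gated subset Fn1 was 276, 349.7 and 733 CPM, the last called higher. The gated macrophages were 41% of phagocytes at day 2 and 71.8% at day 7, and the Ly6c2-high monocytes 28.5% and 7.41%.

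Stromal cells carried Sparc, Postn, Tnc and Lum. Sparc was 319 CPM in sham (8 UMIs in 7 cells), 2129 CPM at day 2 (1880.4 to 2401), 9359 CPM at day 7 (9141 to 9582) and 3375 CPM in the reversed library (3245 to 3508). Postn was 0, 48.2 CPM at day 2 (6 UMIs), 402 CPM at day 7 (357 to 449.8) and 30.6 CPM in the reversed library (19.4 to 45.9). Postn was found in 33 of 74 cells at day 7 and 8 of 88 in the reversed library. Lum was 0, 466 CPM at day 2 (58 UMIs from 4 cells), 669 CPM at day 7 (611 to 730.3) and 214 CPM in the reversed library (182 to 249.7), and in the reversed library 10 of 88 cells held all of it, 61 of 161 UMIs in 1 cell. Lymphocytes held at most 2.43 CPM of Postn and 1.82 CPM of Lum.

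Tnc differed from these in that, over the stromal class, it was highest in the reversed library. It was 0 in sham, 209 CPM at day 2 (26 UMIs in 2 cells), 176 CPM at day 7 (147 to 209) and 372 CPM in the reversed library (329.8 to 418), in 40.5% of stromal cells at day 7 and 65.9% in the reversed library. Thbs1 in stromal cells was 0, 48.2 CPM at day 2 (6 UMIs), 306 CPM at day 7 (268 to 349) and 464 CPM in the reversed library (416 to 515), also highest in the last library. Fn1 was 79.7 CPM in sham (2 UMIs), 193 CPM at day 2 (24 UMIs), 1370.1 CPM at day 7 (1287 to 1457) and 578 CPM in the reversed library (525 to 635). Stromal Fn1 at day 7 was above the phagocyte level of the same library, and at day 2 it was below it. Vcan was 158 CPM at day 7 (131 to 189.8) and 69.1 CPM in the reversed library (51.6 to 90.6), with 1 UMI in each of the earlier libraries. Ecm1 was 119.6 CPM in sham (3 UMIs), 305 CPM at day 2 (216 to 419), 91.3 CPM at day 7 (70.9 to 116) and 203 CPM in the reversed library (172 to 238). Tgfbi stayed at 0 to 71.8 CPM, and the 10 phagocyte markers summed to 39.9, 329, 1048 and 339 CPM in the gated stromal cells, whose part in it was not tested.

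From day 2 to day 7, 5 of 9 genes were called higher in stromal cells, Fn1, Thbs1, Sparc, Postn and Vcan, against 10.3% of all genes, and Ecm1 was called lower, against 7.3%. The log2 ratios were 2.82 for Fn1 (2.24 to 3.47), 2.64 for Thbs1 (1.51 to 4.05), 2.14 for Sparc (1.96 to 2.32), 3.03 for Postn (1.91 to 4.44) and 4.14 for Vcan (1.77 to 7.06). Ecm1 had -1.73 (-2.32 to -1.12), and the median was 2.14 for the 9 genes and 0.087 for all genes. The stromal class changed its makeup between these libraries: 11 of 15 cells at day 2 and 3 of 74 at day 7 were mural-led (pericyte or smooth muscle markers), and 4 and 71 were collagen-led. The part of that change in the ratios was not tested. With cells thinned to 1000 UMIs 2 genes were called higher and none lower. Thbs1, Postn and Vcan then missed the call with ratios of 2.14, 8.15 and 6.58, and Ecm1 with -0.30. No comparison with sham was made, since 7 cells were under the minimum of 10.

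Within the 4 collagen-led cells of day 2 and the 71 of day 7, Fn1 was 361 and 1389 CPM, Thbs1 21.2 and 311, Sparc 4182 and 9484, Postn 127 and 407, and Vcan 21.2 and 161. Ecm1 was 552 and 91.3 CPM, Tnc 552 and 178, Lum 1231 and 678, and Tgfbi 149 and 64. These day 2 values come from 4 cells and were not put to the 2-fold rule. Mural-led cells held Sparc at 334, 879, 484 and 571 CPM in the order of the libraries and no UMI of Lum.

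From day 7 to reversal, 5 of 9 genes were called lower in stromal cells, Fn1, Sparc, Postn, Vcan and Lum, against 5.31% of all genes, and Ecm1 and Tnc were called higher, against 6.46%. The log2 ratios were -3.67 for Postn (-4.33 to -3.07), -1.64 for Lum (-1.90 to -1.38), -1.47 for Sparc (-1.54 to -1.41), -1.24 for Fn1 (-1.41 to -1.08) and -1.19 for Vcan (-1.68 to -0.71). Tnc had 1.08 (0.77 to 1.39), Ecm1 1.15 (0.73 to 1.58) and Thbs1 0.60 (0.35 to 0.84), and the median was -1.19 for the 9 genes and 0.11 for all genes. Of the reversed stromal cells, 20 belonged to a cluster led by Ncam1 and Wt1 that had no stromal-gated cell in the other libraries. Without those 20 cells 3 genes were called lower, the Fn1, Vcan and Ecm1 calls were lost and Thbs1, at 1.05, was called higher. The Ecm1 and Vcan calls were also lost with clusters for the gate, where Ecm1 was 0.30, and with thinned cells, where Vcan was -0.25. The Postn call was lost with thinned cells, at -2.62. The Tnc call was lost in 4 of 9 alternatives, those with clusters for the gate, thinned cells or either other scaling, with ratios from 0.36 to 0.98.

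The collagen-led cells alone, 71 at day 7 and 54 in the reversed library, also had genes called in both directions. Postn was 407 and 51.2 CPM, a log2 ratio of -2.97 (-3.65 to -2.35), and Sparc 9484 and 4445 CPM, a ratio of -1.09 (-1.17 to -1.02), both called lower. Thbs1 was 311 and 740 CPM, a ratio of 1.25 (1.00 to 1.50), and Tnc 178 and 468 CPM, a ratio of 1.39 (1.06 to 1.71), both called higher. Lum had -0.85, Fn1 -0.72, Vcan -0.46, Ecm1 0.48 and Tgfbi 0.94, none past 2-fold. Median depth in these cells was 9448 UMIs at day 7 and 5502 in the reversed library.

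**Figure D4:**
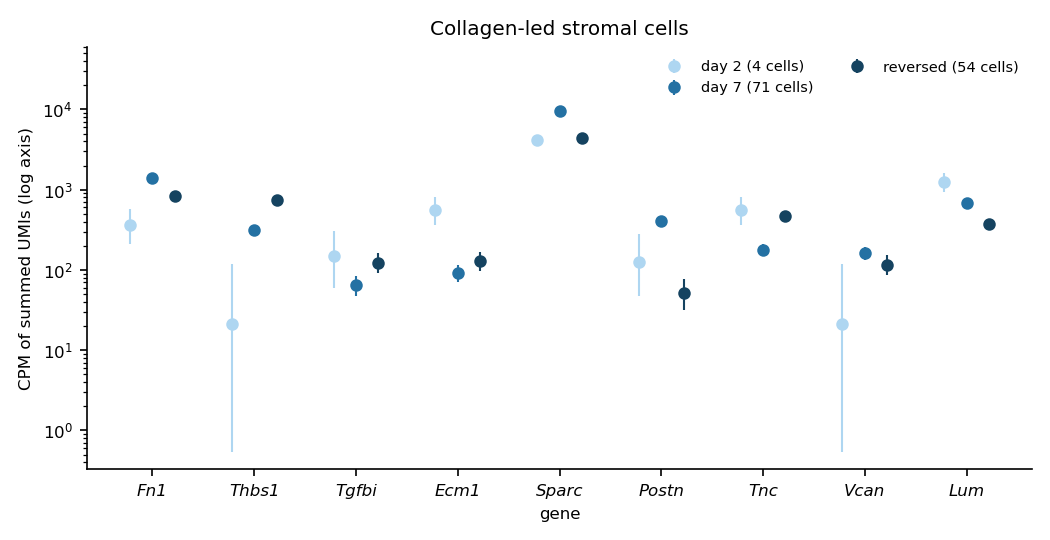
Points give CPM of summed UMIs on a log axis for each gene in collagen-led stromal cells of the day 2, day 7 and reversed libraries, with bars for the exact Poisson 95% interval. From day 7 to reversal Postn and Sparc are lower and Thbs1 and Tnc higher, and the day 2 points rest on 4 cells.

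The cluster led by Ncam1 and Wt1 was itself a source of Tnc, Ecm1 and Sparc. It held 4, 14, 14 and 91 cells of any gate, and in its 91 reversed cells Tnc was 257 CPM (226 to 292), Ecm1 299 CPM (265 to 336), Sparc 1760.3 CPM (1676 to 1847), Fn1 309.5 CPM (275 to 347) and Thbs1 84 CPM (66.5 to 105). Tnc was found in 78% of these cells and Ecm1 in 76.9%. Of the 91 cells the gate left 40 unassigned and put 20 in the stromal and 17 in the tubule class.

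Endothelial cells held Sparc in every library. Endothelial Sparc was 1338 CPM in sham (1237 to 1446), 2480.2 CPM at day 2 (2348 to 2617), 2545 CPM at day 7 (2466 to 2627) and 1905 CPM in the reversed library (1832 to 1979.9), in 89.5 to 99.2% of cells. Sham was the lowest library and days 2 and 7 did not separate. The log2 ratios were 0.89 for day 2 against sham (0.75 to 1.03), 0.037 between days 2 and 7, -0.42 from there to the reversed library (-0.49 to -0.35) and 0.51 between sham and the reversed library (0.38 to 0.64), none past 2-fold. Endothelial cells gave 57.1, 51, 27.2 and 33.3% of the Sparc UMIs of the libraries, and stromal cells 0.71, 10.2, 48.8 and 32.9%. Cells of other gates or of none gave 30.6, 25.3, 12.6 and 19.6% of Sparc UMIs, and 50, 7.28, 10.2 and 30.7% of Ecm1 UMIs. Over all libraries Sparc was 1782 CPM and Ecm1 203 CPM in a cluster of 52 cells led by Sfrp2, Ptn and Itga8. The gate left 57.7% of that cluster unassigned, and 26 of its cells were from sham.

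By vessel type, Sparc was 1242, 1677, 1957 and 1634 CPM in glomerular cells, 1475, 2937, 2486 and 2009 CPM in peritubular cells and 1414, 2808, 3129 and 1479 CPM in large-vessel cells. In large-vessel cells, 34 at day 7 and 30 in the reversed library, the log2 ratio of -1.08 (-1.31 to -0.86) was called lower. Endothelial Ecm1 was 68.7, 91.7, 47.3 and 71.9 CPM, above the 8.71 to 17.7 CPM of lymphocytes in the 3 later libraries. In peritubular cells Ecm1 was 124 CPM at day 2, 38.1 CPM at day 7 and 78.2 CPM in the reversed library, called lower and then higher, from 13, 29 and 49 UMIs.

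Over the whole endothelial class 1 call was made for these genes. Day 2 against sham had 0 of 2 genes called, with 3.74% of all genes called higher and 3.89% lower. Day 7 against day 2 had 0 of 5, with 6.59% higher and 2.74% lower. Reversed against sham had 0 of 2, with 6.05% higher and 2.61% lower. Reversed against day 7 had none of 5 genes higher, against 1.79%, and Tgfbi lower, against 1.74%, at 27.6 and 8.15 CPM. That Tgfbi level was under the lymphocyte level of both libraries, 39.5 and 11.2 CPM.

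Tubule cells carried Thbs1. Over all tubule cells Thbs1 was 15.8 CPM in sham, 50.6 at day 2, 50.1 at day 7 and 22 in the reversed library, against at most 3.73 CPM in lymphocytes. The level depended on the segment. Principal cells of the collecting duct held Thbs1 at 151 CPM in sham (109 to 204), 193 at day 2 (158 to 233), 114 at day 7 (85.7 to 149) and 52.8 in the reversed library (24.1 to 100.2). Proximal cells held 2.18, 3.39, 3.85 and 5.52 CPM. Loop cells held Thbs1 at 25.4, 47.8, 44.2 and 35.9 CPM and intercalated cells at 51.7, 30.7, 24.1 and 44.5 CPM. Cells with injury markers (Havcr1, Krt20 and others) held 76 CPM at day 2 (65.4 to 87.8), 56.5 at day 7 (48 to 66) and 42.8 in the reversed library (32.1 to 55.8). A tubule cluster led by Apela, Ankrd1 and Fst held 179 CPM.

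The makeup of the tubule class moved with the total: 2994 of 3371 tubule cells in sham were proximal, 546 of 1206 at day 2, 174 of 829 at day 7 and 1092 of 1652 in the reversed library. Its part in the class ratios was not tested. Within principal cells the reversed library was called lower in Thbs1 than day 7, at a log2 ratio of -1.10 (-2.27 to -0.081), and than sham, at -1.50 (-2.69 to -0.46).

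Over the whole tubule class, 5 of 5 genes were called higher at day 2 than in sham (Fn1, Thbs1, Tgfbi, Ecm1 and Sparc) and none lower, where 21.2% of all genes were called higher and 4.17% lower. With a 20% mitochondrial limit the Thbs1 ratio was -0.20 and the Sparc ratio -0.44, and with lymphocyte CPM subtracted Tgfbi was -0.34, Ecm1 -1.44 and Sparc -0.067. The Sparc call was also lost under both other scalings and a pseudocount of 10 CPM. The Fn1 and Ecm1 calls were lost with thinned cells and that pseudocount, and the Tgfbi call with thinned cells. Thinned cells gave ratios of 3.45 for Fn1 and 4.12 for Tgfbi. Tgfbi, Ecm1 and Sparc were below, at and somewhat above the lymphocyte level of the day 2 library: Tgfbi was 14.5 against 24.4 CPM, Ecm1 8.76 against 8.71 and Sparc 28.2 against 17.4. Fn1 was 0.351, 8.76, 22.2 and 18.7 CPM in tubule cells and 0, 3.48, 14 and 12.1 CPM in lymphocytes. Day 7 against day 2 had 3 of 6 genes called higher, Fn1, Sparc and Tnc, against 6.97% of all genes, and none lower against 1.23%. The Fn1 call was lost in 5 of 9 alternatives, and with thinned cells the ratio was -0.04. Without the cluster led by Ncam1 and Wt1, tubule Tnc at day 7 was 2.5 CPM in place of 4.53 and was not called. Reversed against day 7 had 0 of 7 higher against 3.94% and 3 lower, Thbs1, Tgfbi and Lum, against 5.49%. Reversed against sham had 5 of 6 higher, Fn1, Tgfbi, Ecm1, Sparc and Tnc, against 20.6%, and none lower against 0.376%. All but Sparc lost the call with thinned cells, where the Fn1 ratio was 4.01. Tgfbi, Ecm1 and Tnc also lost it with a pseudocount of 10 CPM. The Thbs1 ratio was -1.06 with a 20% mitochondrial limit, in place of 0.45. Reversed tubule cells held Tgfbi at 8.68 CPM and Ecm1 at 9.15 CPM against 11.2 and 17.7 CPM in lymphocytes, and with lymphocyte CPM subtracted the ratios were -0.34 and -1.51. Without that cluster reversed Tnc was 2.75 CPM in place of 7, with 3.73 CPM in lymphocytes, and was not called. The 10 phagocyte markers summed to 32.5, 282, 1035 and 349.9 CPM in tubule cells, in the order of the libraries, and their part in these ratios was not tested.

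TMM scaling, which centres each comparison on the bulk of genes, moved the 4 tubule log2 ratios by -0.54, -0.34, 0.34 and -0.53, in the order of the comparisons, and left none of the 3 lower calls of reversed against day 7. It moved the stromal day 7 against day 2 ratios by 0.18 and every phagocyte and endothelial comparison by at most 0.10 in size.

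In injured tubule cells Sparc was 52.3 CPM at day 2, 113 at day 7 and 279.6 in the reversed library, and Fn1 was 14.1, 36.4 and 82.4 CPM, each step called higher. Of the 123 reversed injured cells, 11 belonged to the cluster led by Ncam1 and Wt1. Without that cluster Sparc was 36.7, 99.5 and 157 CPM (135 to 182), Fn1 14.4, 35.8 and 27.5 CPM, and Tnc 2.96, 4.34 and 2.67 CPM, and 31 of the 104 reversed Fn1 UMIs were left.

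Neutrophils were few, with 15 at day 2, 37 at day 7 and 14 in the reversed library. Thbs1 in them was 0, 166 CPM (105 to 249) and 901 CPM (655 to 1210.2), the last from 44 UMIs in 4 of 14 cells.

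Most related secreted genes called in stromal cells were also higher at day 7 and lower in the reversed library. Of 20 other matricellular and small leucine-rich genes, 14 had enough UMIs in stromal cells of days 2 and 7, and 9 were called higher at day 7 (Thbs2, Ctgf, Nov, Wisp1, Wisp2, Spp1, Fbln5, Fmod and Ogn) and 2 lower (Cyr61 and Sparcl1), against 10.3 and 7.3% of all genes. The median log2 ratio was 2.04, and over all genes 0.087. From day 7 to reversal 8 of 15 were called lower (Thbs2, Ctgf, Nov, Wisp2, Tnxb, Fbln5, Fmod and Ogn) and Cyr61 higher, against 5.31 and 6.46% of all genes, with a median of -1.09 against 0.11 over all genes. Wisp2, a CCN family protein, was 24.1, 183 and 5.32 CPM at day 2, day 7 and in the reversed library, a course like that of Postn. Ctgf, a CCN family protein induced by TGF-beta, was 32.1, 313 and 138 CPM. Cyr61, also of the CCN family, took the course of Ecm1, with 530.3, 263 and 615 CPM. Sparcl1, the nearest relative of Sparc in the list, was 1318 CPM at day 2 and 348 CPM at day 7, where Sparc was 2129 and 9359 CPM, and the change of stromal makeup given above applies to both.

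In phagocytes, 2 list genes had enough UMIs in sham and day 2, and Spp1 was called higher, at 125 and 3085 CPM, where 5.63% of all genes were. At day 7 against day 2, Spp1 and Cyr61 were called lower and Bgn and Smoc2 higher, of 6 tested, where 2.79% of all genes were lower and 7.18% higher. Lymphocytes held Spp1 at 2297 CPM at day 2 and tubule cells at 47824 CPM, so the phagocyte Spp1 level at day 2 was close to that of lymphocytes. The highest of the list at day 7 were Spp1, Bgn, Cyr61 and Sparcl1 in phagocytes and Spp1, Bgn, Sparcl1 and Ctgf in stromal cells. In endothelial cells 3 of 7 list genes were called higher at day 2 than in sham, Cyr61, Spp1 and Fbln5, against 3.74% of all genes. At day 7 against day 2, 5 of 10 were lower, Thbs2, Cyr61, Ctgf, Spp1 and Fbln5, against 2.74%, and Wisp1 higher, against 6.59%. Large-vessel cells were 9.47% of endothelial cells in sham, 36.4% at day 2 and 9.19% at day 7. The part of that change in these calls was not tested.

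Receptors of these proteins were counted in the same way. In phagocytes, of 20 receptor genes listed, 2 of 18 tested were called higher at day 2 than in sham, against 5.63% of all genes: Itgam, the alpha chain of the Mac-1 integrin, at 78.8 and 175 CPM, and Stab1, a scavenger receptor that takes up Sparc, at 37.1 and 109 CPM. From day 2 to day 7, 1 of 19 was called higher, against 7.18%: Itga9, an integrin chain that binds tenascin-C, at 7.15 and 20.7 CPM. Plaur, the urokinase receptor, was called lower, against 2.79%, at 66.9 and 29.1 CPM. In the reversed library Cd36, a thrombospondin receptor, was 132 CPM against 57.9 at day 7, and Plaur 64.2 CPM, both called higher, 2 of 19 against 2.38%. Reversed against sham, 3 of 17 were called higher, Cd36, Sdc4 and Stab1, against 4.5%. The 4 highest receptors in day 7 phagocytes were Cd47, Itgam, Itgb2 and Itgb1, and in day 7 stromal cells Itgb1, Lrp1, Itgb5 and Cd47. In stromal cells Itgb5 was called higher at day 7 than at day 2, 1 of 7 tested against 10.3%, and Itga5, the alpha chain of the fibronectin receptor, higher in the reversed library than at day 7, 1 of 11 against 6.46%. Endothelial Cd36 was called lower at day 2 than in sham, 1 of 9 against 3.89%, at 44.9 against 102 CPM. In tubule cells 10 of 14 receptors were called higher at day 2 than in sham, beside the 21.2% of all genes given above. These were Itgav, Itgb1, Itgb2, Cd44, Sdc1, Sdc4, Lrp1, Stab1, Tlr2 and Plaur. The summed phagocyte markers in tubule cells were 32.5 CPM in sham and 282 CPM at day 2. Day 7 against day 2 had 5 of 18 receptors higher, against 6.97%, and none lower. Reversed against day 7 had 5 of 18 lower, against 5.49%, and none higher. Reversed against sham had 11 of 18 higher, against 20.6%, and none lower.

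The genes most alike in level were found by Pearson correlation of log2(CPM + 1) over 15 points of source and library with at least 10 cells, among 13170 genes. The points share libraries and depth, and the values describe likeness only. Sparc was nearest to Mxra8 (0.99) and Fkbp7 (0.98), Postn to Sfrp4 (0.99) and Mfap5 (0.98), Lum to Fbln1 and Mfap4 (both 0.99), Tnc to Dclk1 and Col6a1 (both 0.97), and Vcan to Htra3 (0.94) and Mmp19 (0.93). Fn1 was nearest to Rnf150 and Sh3kbp1 (both 0.94), Thbs1 to Ctps (0.91) and Ccdc34 (0.90), Tgfbi to Rps27a and Mcts1 (both 0.97), and Ecm1 to Tdp1 (0.96) and Sae1 (0.95).

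The Smart-seq2 sample, read counts from 768 wells on 8 plates without molecular identifiers, gave a view per length of gene. Its wells carry no time point, so no library comparison was possible. The same gate named 515 phagocyte wells and 2 stromal, 3 endothelial and 17 tubule wells. In the 368 phagocyte wells with at least 10000 reads, the mean RPM per kilobase of exon (RPM, reads scaled to a common total as CPM is) was 301 for Tgfbi, 25.7 for Ecm1, 15.1 for Fn1, 8.73 for Thbs1, 2.25 for Sparc and 0.201 for Vcan. Tgfbi reads were found in 97.8% of those wells, Fn1 in 56%, Ecm1 in 40.2%, Thbs1 in 20.4%, Sparc in 15.8%, Vcan in 3.53%, Tnc in 1.9%, Lum in 0.272% and Postn in 0 of 368, with a Postn read in 2 of all 515 wells. Tgfbi led both measures, as it was also the most often detected in droplet phagocytes. Over all 515 wells 1 well held 38.5% of Fn1 reads and 1 well 68.2% of Thbs1 reads. Phagocyte Fn1 ranged over the 8 plates from 9.85 to 883 RPM and Tgfbi from 765 to 1749.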

How the data were processed

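UMI counts per gene and cell from 4 droplet libraries and read counts per gene and well from 768 Smart-seq2 wells were used as deposited by the authors. Cell Ranger, STAR and the builds GRCm38 and mm10 are named, per the submitters' processing notes, without versions or roles, and the settings are not given in the sources used here. Droplet cells with under 200 genes (506) or over 50% mitochondrial UMIs (2547) were left out, as were 477 cells with the highest doublet scores, taken at 0.8% per 1000 cells. A marker gate (10 markers each for phagocyte, stromal and endothelial cells, 36 for tubule) named cells with a score of at least 0.35 and a second score of at most 0.75 of the first. Leiden clusters (2000 variable genes without the 9 genes, 30 components, 15 neighbours, resolution 1) gave 37 clusters, and a cell's cluster gave the same class as its gate for 87.5 to 99.6% of cells by class. None of the 9 genes is a gate marker. UMIs were summed per class and library, with exact Poisson intervals for CPM, exact Clopper-Pearson intervals for shares and exact conditional binomial intervals for log2 ratios at a pseudocount of 1 CPM. A ratio was called at 2-fold, at 30 or more summed UMIs and 10 or more cells per library. On simulated counts for day 7 against day 2 with 200 genes at 4-fold, the rule recovered 98% in phagocytes and 96.5% in endothelial cells. The simulated class totals were independent Poisson counts, with no clumping of UMIs in few cells and no difference between preparations. The recovery thus covers counting error only. The 9 genes, the 2 lists of 20 related genes and receptors, and the tests were chosen with earlier results of these data known. The genes named are the 9, the 2 genes most alike to each, and list genes that passed the rule or were among the 4 highest of a source. Promoter windows came from a RefSeq table (GRCm38.p6), and no protein sequence was used. Smart-seq2 rows that name no mouse gene (93 rows, 1.57% of reads) were left out. Alternatives covered the mitochondrial limit (20%), the gate, doublets, thinning to 1000 UMIs, TMM (edgeR 4.0.16) and median-of-ratios scaling (DESeq2 1.42.0), lymphocyte levels subtracted, the pseudocount and the UMI minimum, and 2 more were added after seeing the data. Some items and the results that need them are not reported here. Python 3.11.15, scanpy 1.11.5, scipy 1.17.1 and R 4.3.3 were used.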

Additional observations from a re-analysis of the deposited data

Results flagged for a closer look

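Between day 2 and day 7, 3 genes were called in opposite directions in different sources of the same libraries, and the difference between sources was not tested. Fn1 had a log2 ratio of 2.82 in stromal cells, -1.50 in phagocytes and 1.25 in tubule cells, where the call was lost in 5 of 9 alternatives and the ratio was -0.04 with cells thinned to 1000 UMIs. Thbs1 had 2.64 in stromal cells and -2.05 in phagocytes. Vcan had 4.14 in stromal cells, from 1 UMI at day 2, and -1.04 in phagocytes. The stromal values set 15 cells, 11 of them mural-led, against 74 cells, 3 of them mural-led, and the tubule Fn1 level at day 7, 22.2 CPM, stood beside 14 CPM in lymphocytes.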

How the results depend on the processing

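No paired analysis was possible because each time point had 1 library. Of 399 recomputed counts 348 stayed within 1.5 times the reported count, and of 1062 recomputed log2 ratios 845 kept their verdict, 70 lost and 17 gained a call, 121 without a call left their counting interval and 9 reversed. All values here count the 9 genes called, and the cause of each change was not tested. With a 20% mitochondrial limit, tubule cells had 3 higher at day 2 against sham, 1 higher and 1 lower for reversed against day 7, and 1 lower for reversed against sham, with Thbs1 at -0.20 and Sparc at -0.44 in the first. With clusters for the gate, 0 were lower in reversed phagocytes and 0 higher in reversed stromal cells against day 7, and endothelial cells had 1 higher at day 2 against sham, 1 lower at day 7 against day 2 and 2 higher for reversed against sham. Without doublet removal 2 were lower in reversed endothelial cells against day 7. With cells thinned to 1000 UMIs, phagocytes had 1 higher at day 7 against day 2, 0 higher for reversed against day 7 and 0 higher for reversed against sham. Thinned stromal cells had 2 higher and 0 lower at day 7 against day 2, then 0 higher and 3 lower for reversed. Thinned endothelial cells had 0 lower for reversed against day 7. Thinned tubule cells had 2 higher at day 2, 1 higher at day 7 against day 2 (Fn1 at -0.04) and 1 higher for reversed against sham. Counting genes by the source with their highest CPM, thinning left 1 for sham tubule and 0 for day 2 endothelial cells. TMM and median-of-ratios scaling each left 1 higher in reversed stromal cells, and 0 and 1 lower in reversed tubule cells, against day 7, and no direction of a called gene reversed under either scaling. With lymphocyte CPM subtracted, phagocytes had 1 lower at day 2, 1 higher at day 7 against day 2, 2 lower for reversed against day 7 (Tnc at -1.0), and 1 higher and 1 lower for reversed against sham. Endothelial cells then had 2 lower at day 7 against day 2 and 0 lower for reversed. Tubule cells then had 2 higher and 1 lower at day 2 (Tgfbi -0.34, Ecm1 -1.44, Sparc -0.067), 1 higher at day 7, 1 higher for reversed against day 7, and 3 higher and 1 lower for reversed against sham (Tgfbi -0.34, Ecm1 -1.51). At a pseudocount of 10 CPM, phagocytes had 1 higher at day 7 against day 2 and 0 higher and 0 lower for reversed, and tubule cells 2 higher at day 2, 1 higher at day 7, 0 lower for reversed against day 7 and 2 higher against sham. With no UMI minimum, 2 were lower in reversed phagocytes against day 7, and endothelial cells had 2 higher at day 2 and 1 higher for reversed against sham. Among alternatives chosen after seeing the data, stromal cells without the cluster led by Ncam1 and Wt1 had 3 lower for reversed. The 7 sham stromal cells and 20 sham lymphocytes limit what that library can show.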
